A study of Rattus norvegicus with 35 samples.

Results

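Iron handling and antioxidant genes were followed in rat retinas after intraorbital crush (IONC) or intraorbital transection (IONT) of the optic nerve. The set named 10 genes: Cp, Hmox1, Tf, Tfrc, Fth1, Slc40a1, Nfe2l2, Gclc, Gclm and Txnrd1. A gene was measured when a probe set of the array carried its symbol alone, and its probe set with the highest mean over all 35 arrays was used. By this rule 8 of the 10 genes were measured, of 14217 genes with such a probe set on the array. Tf and Fth1, which encode transferrin and the heavy chain of ferritin, were not measured because their probe sets carry several symbols.

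The samples were left retinas of adult female Sprague-Dawley rats, and for every array the RNA of 4 retinas, each of another rat, was mixed. There were 3 arrays for each of 5 times after IONC, namely 12, 24 and 48 h and 3 and 7 d. There were 3 arrays for each of 12 and 48 h and 7 d after IONT, and 2 for each of 24 h and 3 and 15 d. The naive group of 5 arrays came from rats that were not operated on, so the effects of the orbital surgery itself and of the nerve lesion cannot be told apart. In IONT the nerve was cut nearer to the eye than it was crushed in IONC, so the kind of lesion and its distance cannot be told apart either.

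Iron is carried in blood by transferrin, enters cells through the transferrin receptor, is stored in ferritin and leaves through ferroportin, after which a copper-containing ferroxidase oxidizes it. Free iron in the cell drives the formation of reactive oxygen species, and haem is broken down by haem oxygenase, which releases its iron. The transcription factor NRF2 raises genes of glutathione synthesis and of the thioredoxin system when a cell meets oxidants. In the retina, Müller glia make ceruloplasmin and much of the glutathione.

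The arrays fell into 2 sets by how far the 3′ control probe set of β-actin exceeded the 5′ one, a measure of how complete the labelled transcripts are. Array set 1 holds 27 arrays, with a log2 excess between 1.53 and 1.93. Array set 2 holds the other 8, with 2.61 to 3.65, which were naive replicates 4 and 5 and all arrays of IONT 24 h, 3 d and 15 d. These 3 groups were therefore compared with naive replicates 4 and 5, and all other groups with naive replicates 1 to 3. IONC 12 h replicate 2 stood apart from the other 34 arrays: its median correlation with them was 0.871, against 0.962 to 0.992 for the rest. For the genes of the set, and for other genes where it moved a call or a value, results are given with and without it. Ganglion cell markers (7 of 7 measured) had a summed linear signal of 1713 to 2154 at 7 d after IONC, against 9740 to 10233 in naive replicates 1 to 3, and of 509 to 640 at 15 d after IONT, against 8097 to 8595 in naive replicates 4 and 5. Microglia and macrophage markers (11 of 11 measured) had sums of 406 to 4073 after IONC and 494 to 2375 after IONT, against 258 to 329 in naive. Fewer cells of a type and less RNA per cell cannot be told apart in whole retinas, and p-values measure the spread between pools of retinas.

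**Figure D1:**
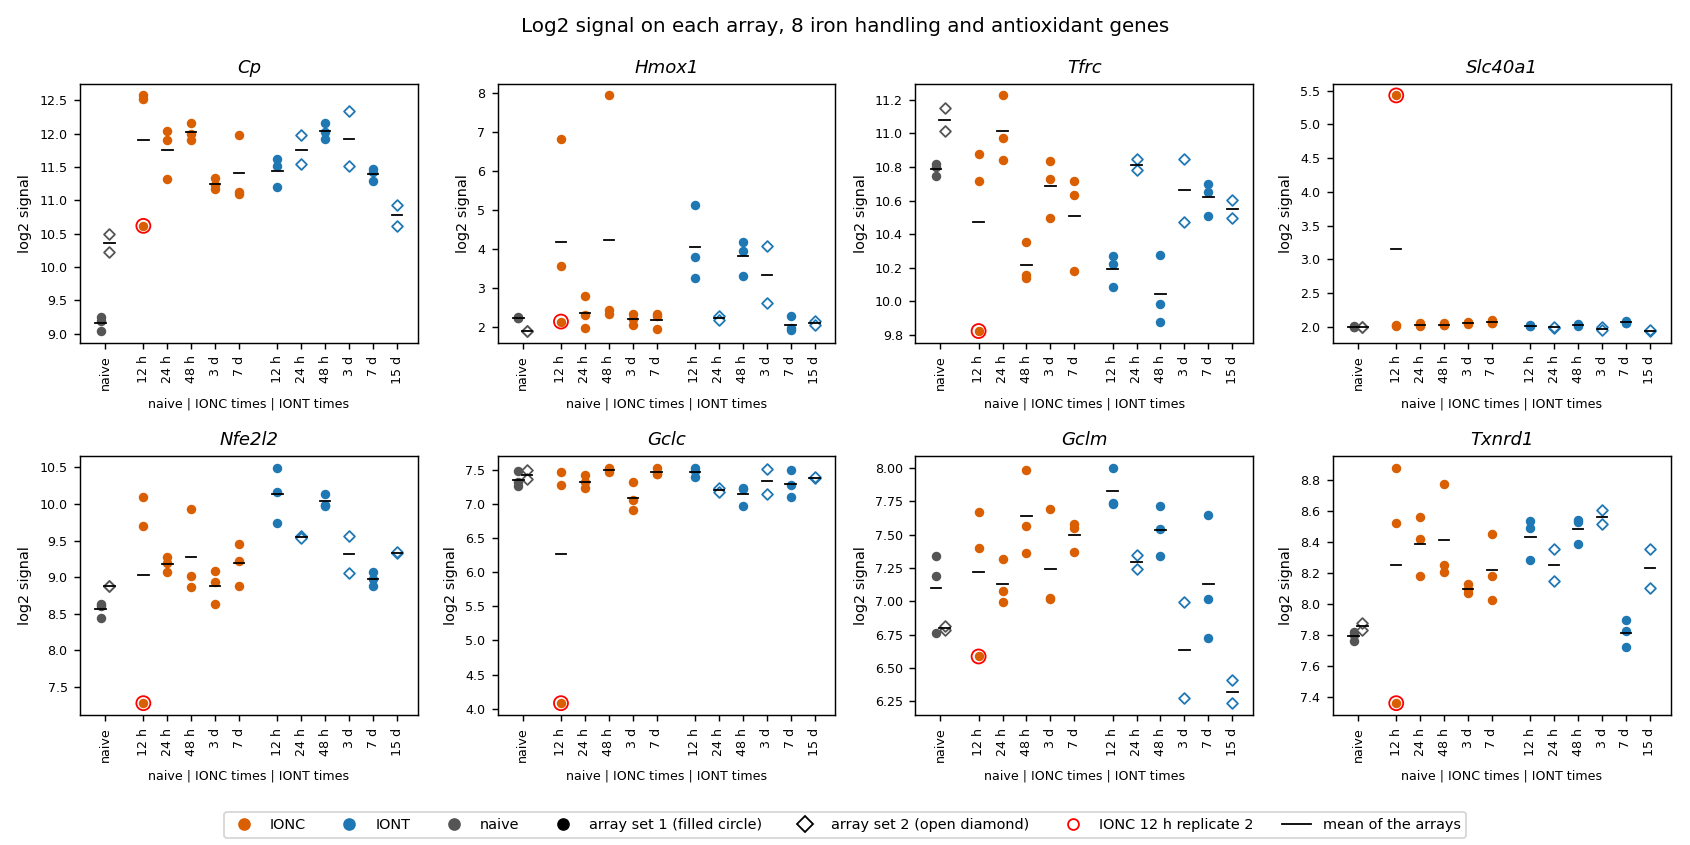
The log2 signal of each of the 8 measured genes is plotted for every array, with naive at the left, then the IONC times and the IONT times; points are arrays, short lines are group means, open diamonds are arrays of array set 2 and the red ring marks IONC 12 h replicate 2. Cp lay above its matched naive arrays in every injured group, Slc40a1 lay near 2 on all arrays but the ringed one, and the ringed array was the lowest of all for Tfrc, Nfe2l2, Gclc and Txnrd1.

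Ceruloplasmin, the ferroxidase encoded by Cp, was higher after both lesions, and it was the only one of the 8 genes called on all arrays. At a Benjamini-Hochberg adjusted p under 0.01 from limma over 31042 probe sets and log odds (B) above 0, with changes under 1.2-fold not counted, Cp rose at all 5 times after IONC and at 3 of 6 times after IONT. The signal of Cp (probe set 1368420_at) after IONC was 12.58, 10.62 and 12.53 at 12 h, 12.05, 11.91 and 11.32 at 24 h, and 12.17, 12.00 and 11.91 at 48 h. It was 11.22, 11.34 and 11.17 at 3 d and 11.99, 11.13 and 11.10 at 7 d, against 9.19, 9.04 and 9.25 in naive replicates 1 to 3. Every IONC array was thus above every one of these naive arrays, the lowest being IONC 12 h replicate 2. The log2 change 12 h after IONC was 2.75 (6.71-fold, adjusted p = 8.27e-06). It was 2.60 after 24 h (6.06-fold, adjusted p = 6.69e-05) and 2.86 after 48 h (7.28-fold, adjusted p = 1.81e-05). It was 2.08 after 3 d (4.24-fold, adjusted p = 0.00185) and 2.25 after 7 d (4.74-fold, adjusted p = 0.000438), and the SE of each change was 0.34. The 95% intervals of the 5 times overlapped, while the arrays of 48 h (11.91 to 12.17) and 3 d (11.17 to 11.34) did not. No test between times was run, so the order of the times was not tested. Cp was the 1 of 8 genes called at each time, where the share of all tested probe sets called was 4.14% after 12 h, 0.896% after 24 h, 1.36% after 48 h, 0.348% after 3 d and 0.577% after 7 d.

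After IONT, Cp had 11.62, 11.52 and 11.20 at 12 h, 12.17, 11.92 and 12.03 at 48 h and 11.47, 11.30 and 11.42 at 7 d, against the same naive values of 9.04 to 9.25. The arrays of the 3 times did not overlap with naive. The log2 change was 2.29 after 12 h (4.87-fold, adjusted p = 0.000193). It was 2.88 after 48 h (7.35-fold, adjusted p = 6.13e-06) and 2.24 after 7 d (4.72-fold, adjusted p = 0.000291). Here 1.05% of all tested probe sets were called after 12 h, 2.06% after 48 h and 0.976% after 7 d.

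At the other IONT times the matched naive arrays were themselves higher, and the changes were smaller. Cp had 11.98 and 11.55 at 24 h, 12.34 and 11.51 at 3 d and 10.93 and 10.62 at 15 d, against 10.50 and 10.23 in naive replicates 4 and 5. All 6 injured arrays were above both naive arrays, by little at 15 d. The log2 change was 1.40 after 24 h (adjusted p = 0.0952), 1.57 after 3 d (adjusted p = 0.0486) and 0.41 after 15 d (adjusted p = 0.923). None was called, where 0.831% of all probe sets were called after 24 h, 0.954% after 3 d and 1.87% after 15 d. On this probe set the naive arrays of set 2 averaged 10.36, against 9.16 in those of set 1, a difference of 1.2 with no lesion involved. Against all 5 naive arrays as 1 group, Cp was called at both times after IONT, with changes of 2.12 at 24 h (adjusted p = 0.00173) and 2.29 at 3 d (adjusted p = 0.00103), and lost its call at 3 d after IONC (1.60, adjusted p = 0.0172).

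Without IONC 12 h replicate 2, Cp was called at 24 h (adjusted p = 0.00216) and 3 d (adjusted p = 0.000678) after IONT too, and at 12 h after IONC it stood 3.39 above naive (10.5-fold, adjusted p = 6.68e-09). The change at 15 d after IONT was not called in that fit either (adjusted p = 0.272). The call at 3 d after IONC ended without naive replicate 2 (adjusted p = 0.0157), without IONC 3 d replicate 1 (adjusted p = 0.0126) and without IONC 3 d replicate 2 (adjusted p = 0.0125). The other 7 Cp calls held whichever array was left out. On all arrays a second probe set of Cp, 1368418_a_at, was called at the same 8 times with changes of 1.49 to 2.17. The third, 1368419_at, was called on all arrays only at 48 h after each lesion. Its changes there were 1.43 after IONC (adjusted p = 0.00335) and 1.61 after IONT (adjusted p = 0.000614). The naive arrays of sets 2 and 1 were closer on these probe sets. They averaged 9.90 and 9.27 on 1368418_a_at, and 9.79 and 9.72 on 1368419_at.

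The genes whose 11 changes from naive were most like those of Cp, among 5163 genes compared, were Cd63 (Pearson's r = 0.96), which encodes a membrane protein of endosomes, Ifitm3 (r = 0.94), an interferon-induced membrane protein, and Gfap (r = 0.93), the intermediate filament of reactive glia. These r values describe 11 changes that share naive arrays. Gfap changed by 0.65 to 5.04 over the 11 comparisons, while the summed signal of 7 Müller glia and astrocyte markers, Gfap included, was 16615 to 34919 after IONC, lowest on IONC 12 h replicate 2, and 25893 to 40354 after IONT, against 28620 to 30150 in naive. The part of glial markers in the Cp result was not tested.

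**Figure D2:**
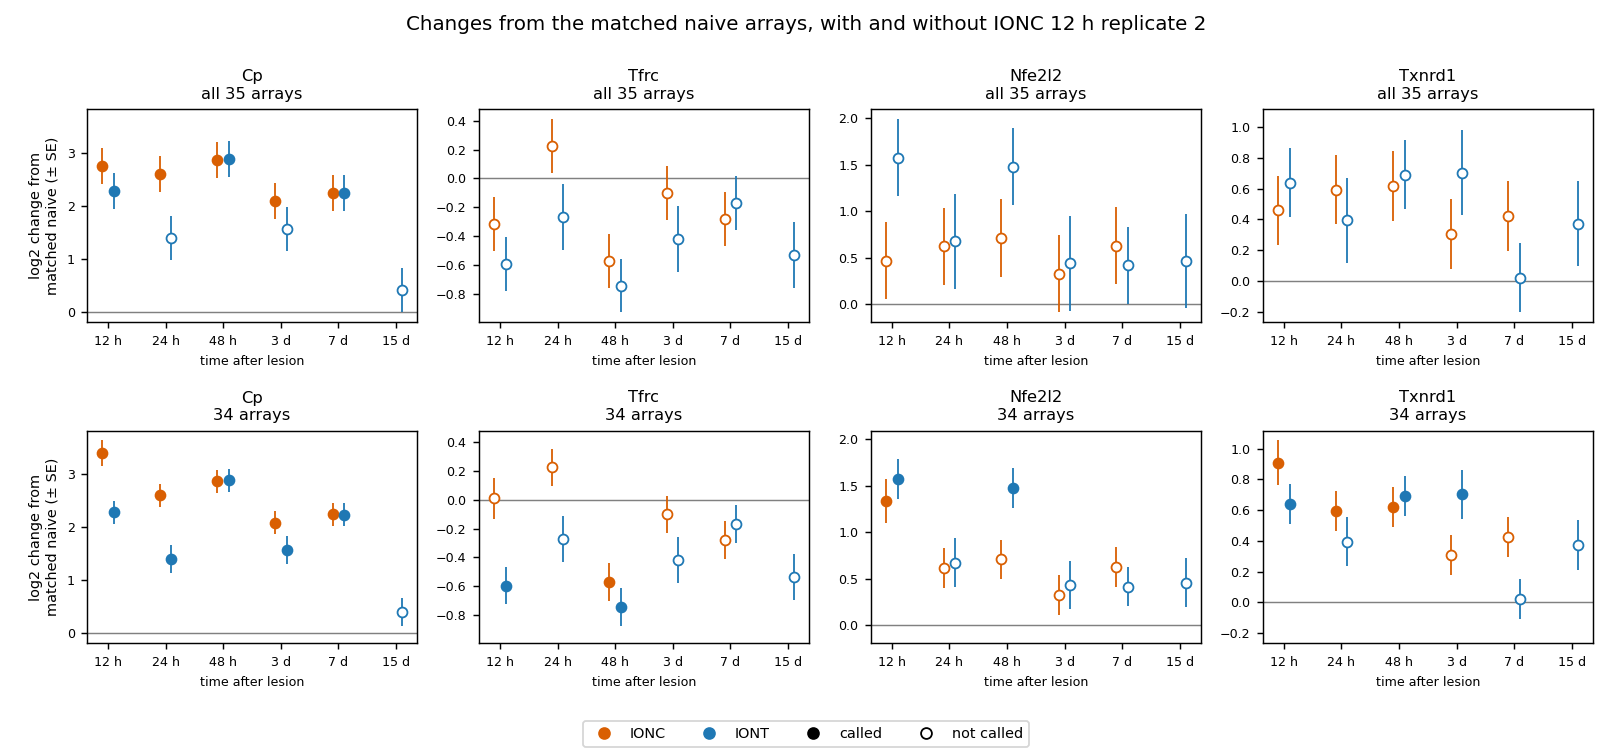
The log2 change from the matched naive arrays (± SE) is plotted against time for Cp, Tfrc, Nfe2l2 and Txnrd1, for IONC and IONT, from the fit of 35 arrays (upper panels) and of the 34 arrays without IONC 12 h replicate 2 (lower panels); filled points were called. Of these genes, only Cp has filled points in the upper panels, and all 4 have them in the lower ones.

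Uptake of transferrin-bound iron runs through Tfrc, the transferrin receptor, whose mRNA is stabilized in iron-poor cells. Tfrc (1388750_at) had 10.14, 10.16 and 10.36 at 48 h after IONC and 9.88, 10.28 and 9.98 at 48 h after IONT, against 10.82, 10.80 and 10.75 in naive. At 12 h after IONT it had 10.22, 10.09 and 10.27. The arrays of these 3 groups were all below naive. The summed signal of rod markers (4 of 6 measured) was 72737 to 80241 at 48 h after IONC, 62482 to 69813 at 12 h after IONT and 58317 to 64028 at 48 h after IONT, against 81162 to 83013 in naive. At 12 h after IONC the rod markers had 50226 to 59526. Tfrc there changed by -0.32 on all arrays and by 0.01 without IONC 12 h replicate 2. The part of rod markers in the Tfrc values was not tested. At 5 other comparisons, 24 h, 3, 7 and 15 d after IONT and 7 d after IONC, the arrays were likewise all below their matched naive arrays, by less. The log2 change was -0.57 at 48 h after IONC (adjusted p = 0.109), -0.60 at 12 h after IONT (adjusted p = 0.141) and -0.74 at 48 h after IONT (adjusted p = 0.0218), so that none was called on all arrays.

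In the fit of 34 arrays, without IONC 12 h replicate 2, Tfrc fell at 48 h after IONC (adjusted p = 0.00551), 12 h after IONT (adjusted p = 0.00596) and 48 h after IONT (adjusted p = 0.000413). At 12 h after IONC the array that stood apart had 9.82 and the others 10.88 and 10.72, so that the change was -0.32 with it (adjusted p = 0.173) and 0.01 without it (adjusted p = 0.999). On all arrays a second Tfrc probe set, 1371113_a_at, had a change of -1.0 at 48 h after IONC (adjusted p = 0.0871). After IONT its changes were -0.77 at 12 h (adjusted p = 0.408) and -0.96 at 48 h (adjusted p = 0.1). None was called, and the values of this probe set in the fit of 34 arrays are not given here.

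Iron export could not be followed. Slc40a1, which encodes ferroportin, lay between 1.93 and 2.09 on 34 arrays, below the first quartile of the signals of each array (2.31 to 2.99). The exception was IONC 12 h replicate 2, with 5.43. The change at 12 h after IONC was 1.15 with that array (adjusted p = 0.0848) and 0.01 without it (adjusted p = 0.999). On its 2 other probe sets that array had 2.17 and 2.21.

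Hmox1, which encodes the inducible haem oxygenase, was also near the lowest signals in naive retinas. It was high on some arrays at 12 and 48 h after IONC, and above naive on all arrays at 12 h, 48 h and 3 d after IONT. Hmox1 (1370080_at) had 6.82, 2.14 and 3.57 at 12 h after IONC and 7.93, 2.45 and 2.33 at 48 h after IONC, against 2.26, 2.24 and 2.24 in naive replicates 1 to 3. It had 5.12, 3.80 and 3.25 at 12 h after IONT and 4.17, 3.30 and 3.95 at 48 h after IONT, and 4.08 and 2.62 at 3 d after IONT, against 1.90 in each of naive replicates 4 and 5. After IONT all arrays of these times were above naive. So were those at 24 h (2.19 and 2.29) and 15 d (2.05 and 2.16) after IONT, against the same 1.90. Naive replicates 1 to 3, in the other array set, lay near these values without a lesion. After IONC the 12 h arrays overlapped with naive, and at 48 h replicate 1 stood far above the other 2, which were just above naive. Hmox1 was not called at any time in either fit: the largest changes were 1.99 at 48 h after IONC (SE 1.01, adjusted p = 0.445), 1.93 at 12 h after IONC (adjusted p = 0.129) and 1.81 at 12 h after IONT (adjusted p = 0.847). With IONC 12 h replicate 2 left out, its change at 12 h after IONC was 2.95 (adjusted p = 0.0891).

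Replicate 1 was the highest IONC array of Hmox1 at both times: without it the change was 0.14 at 48 h and 0.61 at 12 h. The 12 h value then rests on 3.57 and on 2.14, the latter from IONC 12 h replicate 2, the array that stood apart. The same IONC 48 h replicate had the highest Nfe2l2 (9.92, against 9.01 and 8.87 in the others of that time) and Txnrd1 (8.77, against 8.21 and 8.25). It also had the highest summed signal of neutrophil markers (2 of 4 measured), 605, against 51.9 and 21.6. At 12 h after IONT, by contrast, the neutrophil sums were 27.7, 379 and 919 in replicates 1 to 3, the opposite order to Hmox1. The part of neutrophils in the Hmox1 values was not tested. The genes with changes most like Hmox1 were Mvp (r = 0.93), the major vault protein, Lmna (r = 0.89), which encodes lamins A and C, and Rad9b (r = 0.89), a paralogue of a DNA damage checkpoint gene. These r values rest on the few comparisons in which Hmox1 was high on some or all arrays. Its other signals lie near the lowest of the arrays and carry no order.

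**Figure D3:**
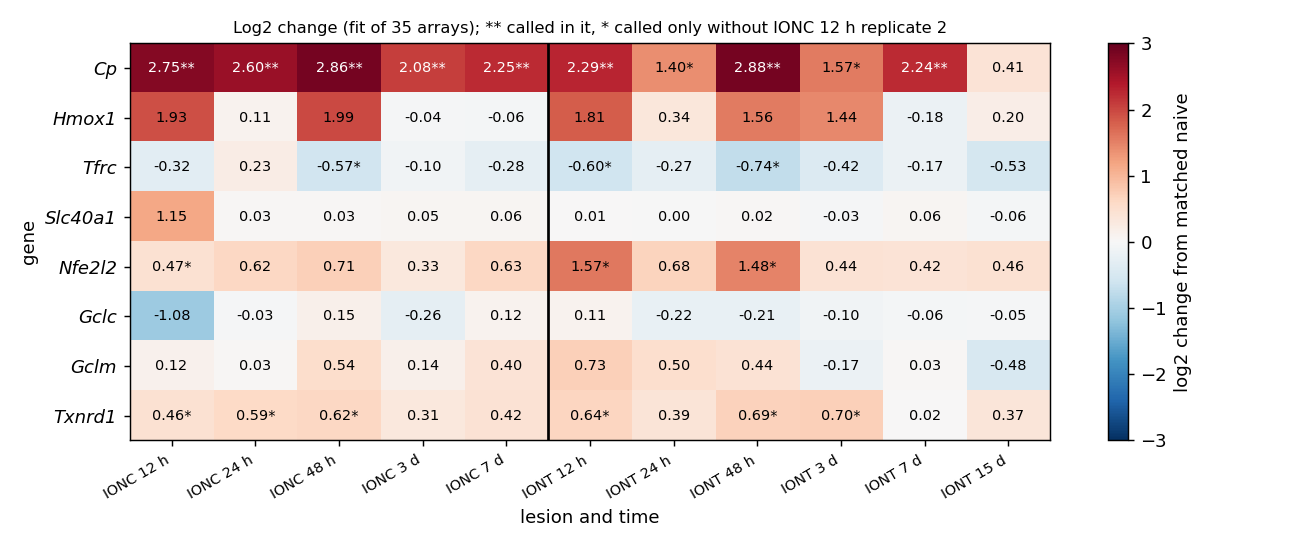
Each cell holds the log2 change of a gene (rows) at a lesion and time (columns) from the matched naive arrays in the fit of 35 arrays, with red for higher and blue for lower than naive; double stars mark calls in that fit and single stars calls made only without IONC 12 h replicate 2. All 8 double stars are in the row of Cp, and the single stars are in the rows of Cp, Tfrc, Nfe2l2 and Txnrd1.

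NRF2, the transcription factor that drives antioxidant genes, is encoded by Nfe2l2. Its mRNA (1367826_at) had 10.50, 10.16 and 9.74 at 12 h and 10.14, 9.99 and 9.98 at 48 h after IONT, against 8.64, 8.44 and 8.60 in naive. At 12 h after IONC it had 10.09, 7.28 and 9.70, and the middle value is the array that stood apart. All IONT arrays and the 2 other IONC arrays were above naive. The log2 change was 1.57 at 12 h after IONT (adjusted p = 0.0497) and 1.48 at 48 h after IONT (adjusted p = 0.0464), neither called on all arrays, and 0.47 at 12 h after IONC (adjusted p = 0.358).

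With that array left out, Nfe2l2 rose at 12 h after IONC (1.34, adjusted p = 0.00052), at 12 h after IONT (2.98-fold, adjusted p = 3.27e-05) and at 48 h after IONT (2.79-fold, adjusted p = 4.39e-05). At the other 8 comparisons the Nfe2l2 arrays ran from 8.64 to 9.92, with changes of 0.33 to 0.71 and no call in either fit. In all 8 every injured array was above its matched naive arrays, though at 3 d after IONC the lowest array and the highest naive array were both at 8.64.

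Txnrd1, which encodes the cytosolic thioredoxin reductase, is a known target of NRF2. Txnrd1 (1398791_at) had 8.88, 7.36 and 8.52 at 12 h, 8.42, 8.56 and 8.18 at 24 h and 8.77, 8.21 and 8.25 at 48 h after IONC. It had 8.49, 8.53 and 8.28 at 12 h and 8.54, 8.53 and 8.38 at 48 h after IONT, against 7.82, 7.76 and 7.80 in naive replicates 1 to 3. At 3 d after IONT it had 8.52 and 8.60, against 7.83 and 7.88 in naive replicates 4 and 5. Only IONC 12 h replicate 2 among these arrays was not above naive. On all arrays none of these changes was called, the smallest adjusted p being 0.107 at 48 h after IONT. In the fit of 34 arrays Txnrd1 rose at all 6 points. After IONC it rose by 0.91 at 12 h (adjusted p = 0.000184), by 0.59 at 24 h (adjusted p = 0.00569) and by 0.62 at 48 h (adjusted p = 0.00299). After IONT it rose by 0.64 at 12 h (adjusted p = 0.00315), by 0.69 at 48 h (adjusted p = 0.0009) and by 0.70 at 3 d (adjusted p = 0.00773). At 7 d after IONT the change was 0.02. The second probe set of Txnrd1, 1386958_at, had changes of 0.01 to 0.60 over the 11 comparisons and no call on all arrays. They were 0.32, 0.37 and 0.36 at 12, 24 and 48 h after IONC. After IONT they were 0.36 at 12 h, 0.60 at 48 h and 0.06 at 3 d. Of these 6 points, its arrays overlapped with naive at 12 h after IONC and 3 d after IONT. Its values on the 34 arrays are not given here.

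The subunits of glutamate-cysteine ligase, the first enzyme of glutathione synthesis, did not pass the test in either fit. Gclm, the modifier subunit (1370030_at), had 8.00, 7.73 and 7.74 at 12 h after IONT, against 7.19, 7.34 and 6.76 in naive, a change of 0.73 with no overlap (adjusted p = 0.24 on all arrays and 0.0615 without IONC 12 h replicate 2). Its naive arrays spread more than those of Txnrd1. Gclc, the catalytic subunit (1372523_at), lay between 6.91 and 7.54 on every injured array but IONC 12 h replicate 2, which had 4.08, and between 7.26 and 7.50 in naive. Its changes other than at 12 h after IONC were -0.26 to 0.15, and that change was -1.08 with the array (adjusted p = 0.0853) and 0.02 without it (adjusted p = 0.999).

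The antioxidant response element bound by NRF2 was looked for in the stretch of 300 bases around the start of the genes, from 250 before it, taken from the RefSeq promoters of the rat build GRCr8. Hmox1 and Fth1 were not searched, since no window was at hand for them. The core TGANNNNGC, on either strand, was in 3 of 9 windows of 8 of the genes, against 40.5% of all 33469 windows. The narrower TGACNNNGC, which the same 3 matches fit, was in 12.1% of all windows. The 3 matches are shown because they belong to antioxidant genes, 2 of which were called without the array that stood apart. The match is in capitals, read 5′ to 3′ on the strand of the gene.
Gclm: tgcggtttctGCTTAGTCAttgtcttcca
Txnrd1: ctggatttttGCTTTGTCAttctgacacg
Nfe2l2: gactagccatTGACGCCGCctc
The Gclm match begins at position -172 (chr2:213031953-213031981, plus strand for the bases shown) and the Txnrd1 match at position -78 of its second annotated start (chr7:22755964-22755992, minus strand), both in the opposite orientation to the gene. The Nfe2l2 match begins at position 39 (chr3:81028950-81028971, minus strand), inside the transcribed part. No match to these letters was in the windows of Cp, Tf, Tfrc, Slc40a1 and Gclc. Whether NRF2 binds these letters in the retina was not measured.

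The calls of the 8 genes came to 5 of 40 gene and time pairs after IONC and 3 of 48 after IONT, all of them Cp. In the fit of 34 arrays they came to 10 of 40 after IONC (9 higher and 1 lower) and 12 of 48 after IONT (10 higher and 2 lower), from the same 4 genes, Cp, Tfrc, Nfe2l2 and Txnrd1. By time after IONC, 3, 2, 3, 1 and 1 of the 8 genes were called in that fit, where 4.79%, 3.54%, 4.83%, 2.05% and 2.12% of all probe sets were. By time after IONT, 4, 1, 4, 2, 1 and 0 were called, where 2.95%, 2.56%, 5.13%, 3.11%, 4.97% and 4.07% of all probe sets were. The median change of the 8 genes on all arrays was highest at 12 h after IONT (0.68, against 0.01 over all tested probe sets) and lowest at 7 d after IONT (0.03, against 0.06).

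The 2 lesions were compared at the 5 shared times as the difference of their changes, to ask whether crush and transection differed. No gene of the 8 was called in these 40 differences from limma, with or without IONC 12 h replicate 2, where from the earliest to the latest time 1.32%, 0.235%, 0.145%, 0.126% and 0.0548% of all probe sets were called on all arrays. Without IONC 12 h replicate 2 these shares were 0.986%, 0.812%, 0.641%, 0.805% and 0.229%. At an unadjusted p under 0.05 there were 5 differences on all arrays, 4 of them at 12 h, and 8 without IONC 12 h replicate 2. The share of all probe sets under this p was not counted, so these counts cannot be set against it. For Cp, IONC minus IONT was 0.46 at 12 h (95% interval -0.24 to 1.16), -0.01 at 48 h (-0.72 to 0.69) and 0.01 at 7 d (-0.69 to 0.71). Without the array that stood apart the 12 h difference was 1.11, with an adjusted p of 0.0129. At 24 h it was 1.2 (0.09 to 2.31, adjusted p = 0.587), although the arrays had like levels, 12.05, 11.91 and 11.32 after IONC and 11.98 and 11.55 after IONT, because the naive arrays they were set against differ by 1.2. The other probe sets of Cp had differences of 1.18 (1368418_a_at) and 0.31 (1368419_at) at 24 h, neither called. For Nfe2l2, IONC minus IONT was -1.11 at 12 h with the array that stood apart and -0.24 without it, -0.77 at 48 h (-1.63 to 0.09) and 0.21 at 7 d (-0.65 to 1.07). For Hmox1 it was 0.43 at 48 h, with an interval of -1.65 to 2.50.

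Around these genes, 31 of 37 further iron handling genes and 44 of 50 further antioxidant genes were measured. Of the iron handling genes, 2 were called higher and 3 lower at some time after IONC, and 3 higher and 0 lower after IONT. Of the antioxidant genes, 1 was called higher and 2 lower after IONC, and 3 higher and 2 lower after IONT. Of all tested probe sets, 1.13% were called higher and 3.64% lower at some time after IONC, and 3.12% higher and 2.3% lower after IONT. The iron handling list had 25 genes with no call and the antioxidant list 39. In the fit of 34 arrays the antioxidant list had 8 higher and 2 lower after IONC and 10 higher and 2 lower after IONT, where 3.84% and 5.03%, and 8.96% and 6.53%, of all probe sets were called higher and lower. The iron handling list then had 3 higher and 2 lower after IONC and 3 higher and 3 lower after IONT.

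Slc11a2, the divalent metal transporter DMT1 that moves iron out of endosomes, was called at 8 of 11 comparisons, the most of its list on all 35 arrays. Without IONC 12 h replicate 2 it had the same count, and Lcn2 had 9. It had 9.22, 8.80 and 9.08 at 12 h, 9.09, 9.31 and 9.18 at 24 h and 9.17, 8.86 and 8.90 at 7 d after IONC, against 7.84, 7.96 and 8.05 in naive. At 12 h after IONT it had 9.33, 9.39 and 9.43, and at 7 d after IONT 8.15, 8.24 and 7.99, which overlapped with naive. At 24 h after IONT it had 9.63 and 9.62, against 8.88 in each of naive replicates 4 and 5. The changes called were 0.60 to 1.24 at the 5 times after IONC, and 1.43 at 12 h, 0.75 at 24 h and 1.35 at 48 h after IONT. The lesions differed in Slc11a2 at 7 d, with IONC 0.85 above IONT (adjusted p = 0.000641 on all arrays and 8.73e-05 without IONC 12 h replicate 2). At 48 h IONC minus IONT was -0.52, called only without that array (adjusted p = 0.00641).

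Lcn2, lipocalin 2, which binds iron-carrying siderophores, was called at 12 h, 24 h and 48 h after IONC, with changes of 4.10, 4.38 and 4.06, and at 12 h and 48 h after IONT, with 4.09 and 4.76. Without IONC 12 h replicate 2 Lcn2 was called at 9 comparisons, with a change of 5.28 at 12 h after IONC (adjusted p = 7.35e-06). The calls gained were 2.81 at 3 d and 2.86 at 7 d after IONC, and 3.04 at 3 d and 2.72 at 7 d after IONT. The naive arrays of Lcn2 had 6.37 to 6.77 and its injured arrays 7.63 to 12.10, with no overlap. Lcn2 is also made by neutrophils and reactive astrocytes, whose markers moved as given above, and their part was not tested. Fbxl5, the iron-sensing subunit of a ubiquitin ligase, was lower at 12 h after IONC (-0.86, adjusted p = 0.000223), and without IONC 12 h replicate 2 it was lower at 7 comparisons, with changes of -0.65 to -0.36. The lesions differed in Fbxl5 at 12 h, with IONC minus IONT at -0.78 (adjusted p = 0.00192) and without that array at -0.52 (adjusted p = 0.00285). Heph, hephaestin, a ferroxidase like ceruloplasmin, was lower at 12 h after IONC (-1.58, adjusted p = 0.0078), which ended without that array (-1.11, adjusted p = 0.0627). Slc25a28, a mitochondrial iron importer, was lower at 12 h after IONC (-1.24, adjusted p = 0.00258; -0.72, adjusted p = 0.00355 without that array), and on the 34 arrays also at 48 h (-0.66) and 7 d (-0.64) after IONC and 7 d after IONT (-0.84). Hp, haptoglobin, which binds free haemoglobin, was higher at 15 d after IONT (1.46, adjusted p = 1.05e-05), with 3.96 and 4.2, against 2.63 and 2.61 in naive, which is near the first quartile of the arrays.

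**Figure D4:**
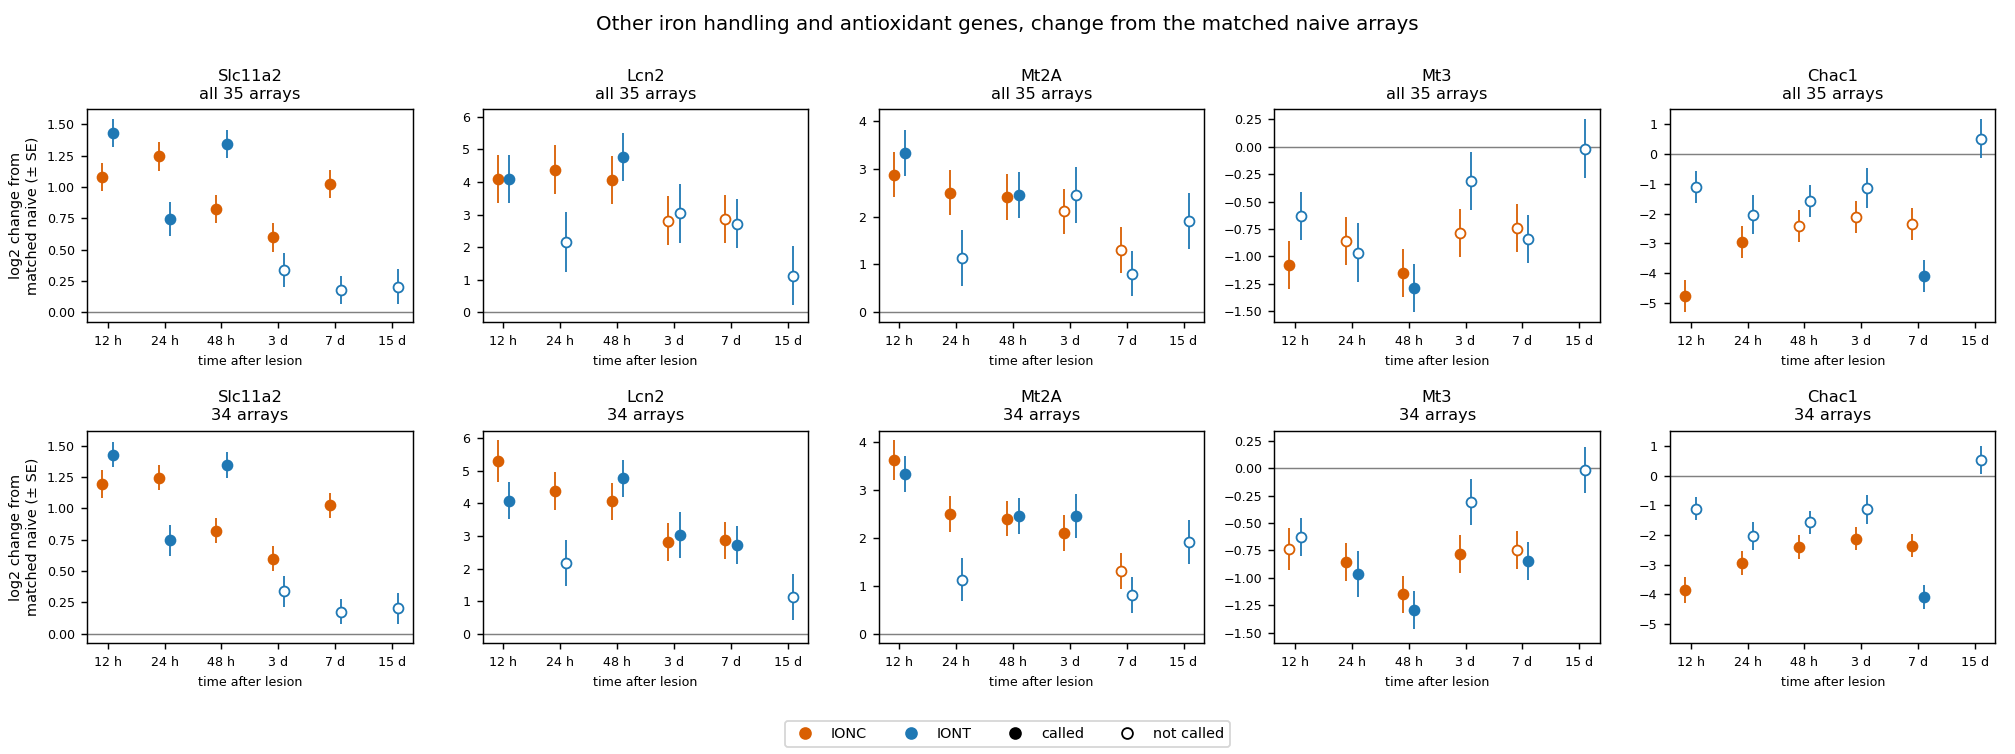
The log2 change from the matched naive arrays (± SE) is plotted against time for Slc11a2, Lcn2, Mt2A, Mt3 and Chac1 after IONC and IONT, from all 35 arrays (upper panels) and from the 34 without IONC 12 h replicate 2 (lower panels); filled points were called. Slc11a2, Lcn2 and Mt2A lay above 0 at every time, and at 7 d Slc11a2 was called after IONC (1.03) and not after IONT (0.18).

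Among the antioxidant genes, the metallothioneins, small proteins that bind zinc and copper and take up radicals, went in opposite directions. Mt2A had 11.01, 8.17 and 9.78 at 12 h after IONC and 9.73, 10.20 and 10.39 at 12 h after IONT, against 6.88, 6.77 and 6.68 in naive. It rose by 2.88, 2.50 and 2.40 at 12 h, 24 h and 48 h after IONC, and by 3.33 and 2.45 at 12 h and 48 h after IONT. On the 34 arrays the Mt2A change at 12 h after IONC was 3.62 (adjusted p = 3.67e-06), and Mt2A was also called at 3 d after IONC (2.11) and 3 d after IONT (2.45). Mt3, the metallothionein of neural tissue, fell by 1.08 and 1.15 at 12 h and 48 h after IONC and by 1.29 at 48 h after IONT. The Mt3 call at 12 h after IONC ended without IONC 12 h replicate 2 (-0.74, adjusted p = 0.0144). In that fit Mt3 was lower at 6 comparisons, with calls gained at 24 h (-0.86) and 3 d (-0.79) after IONC and at 24 h (-0.97) and 7 d (-0.84) after IONT.

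Chac1, an enzyme that degrades glutathione, had 6.54, 3.16 and 5.33 at 12 h after IONC and 5.95, 5.43 and 5.76 at 7 d after IONT, against 9.70, 9.66 and 10.04 in naive, with no overlap. It fell by 4.79 at 12 h and 2.95 at 24 h after IONC and by 4.09 at 7 d after IONT. On the 34 arrays the change at 12 h after IONC was -3.87 (adjusted p = 2.93e-06), and Chac1 was lower at 6 comparisons, the others gained being 48 h (-2.40), 3 d (-2.13) and 7 d (-2.37) after IONC. The lesions differed in Chac1 at 12 h, with IONC minus IONT at -3.67 (adjusted p = 0.000417), and without IONC 12 h replicate 2 at -2.74 (adjusted p = 0.000969). Srxn1, sulfiredoxin, which restores oxidized peroxiredoxins, was not called on all arrays, with a largest change of 2.52 at 48 h after IONT (adjusted p = 0.0301). In the fit of 34 arrays Srxn1 was higher at 6 comparisons, by 1.67 to 2.64. Prdx6, a peroxiredoxin, had 8.41 and 8.38 at 3 d after IONT, against 6.81 and 7.56 in naive replicates 4 and 5, and was called higher (1.21, adjusted p = 0.00264). Naive replicates 1 to 3 of Prdx6, in the other array set, had 8.90, 8.95 and 8.87, above these IONT arrays. A further Prdx6 call was gained at 15 d after IONT on the 34 arrays (0.90, adjusted p = 0.0019). Txnrd2, the mitochondrial thioredoxin reductase, had 5.81 and 6.29 at 15 d after IONT, against 3.54 and 3.79 in naive, and was called higher (2.39, adjusted p = 0.000283).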

How the data were processed

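Total retinal RNA of 35 pools was hybridized to Affymetrix RAE230.2 arrays. The authors deposited the log2 signal of each probe set from GCRMA, which subtracts background, normalizes by quantiles and summarizes probes. Its version is not given in the sources used here. The values were used as deposited. Of 31099 probe sets, 57 controls were left out and 31042 tested, of which 20826 carried 1 gene symbol, 436 several and 9780 none. No scan date was used, and the array sets were split, after seeing the data, at the largest gap in the β-actin values. A linear model with 1 mean per group, the naive arrays split by array set, was run on all arrays in limma 3.58.1 (R 4.3.3, statmod 1.5.0), and the thresholds are those of the study's methods. The model was tested on simulated data. The genes and lists were chosen with earlier results of these data known. Named besides the members were up to 6 genes per list with the most calls and, for 2 members, the 3 genes most alike in change. Alternatives covered thresholds, reference arrays, weights, normalization, filters, probe set choice, replicate blocks and each array left out. The fit without IONC 12 h replicate 2 against all 5 naive arrays was chosen after seeing the data. The number of arrays limits the precision.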

Additional observations from a re-analysis of the deposited data

Results flagged for a closer look

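Tfrc stood on opposite sides of the matched naive arrays after the 2 lesions at 24 h. All 3 IONC arrays (10.84, 10.98 and 11.23) were above naive replicates 1 to 3, and both IONT arrays (10.78 and 10.85) were below naive replicates 4 and 5. These naive arrays themselves differed by 0.29, with means of 11.08 in replicates 4 and 5 and 10.79 in replicates 1 to 3. The IONT arrays lay near naive replicates 1 to 3 (10.75 to 10.82). The difference of the changes, IONC minus IONT, was 0.50 and was not called (adjusted p = 0.901, limma), and without IONC 12 h replicate 2 its adjusted p was 0.219. On the second Tfrc probe set, 1371113_a_at, the IONC arrays (8.04, 8.11 and 8.51) overlapped with naive (8.14, 8.18 and 8.01). Slc40a1 showed the same at 3 d, with a difference of 0.079 (adjusted p = 0.978), between arrays that all lay between 1.95 and 2.07.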

How the results depend on the processing

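The count of calls of the 8 genes on all arrays was 5 of 40 after IONC, 3 of 48 after IONT and 0 of 40 between the lesions. Leaving out each array in turn gave 4 to 10 after IONC, 3 to 12 after IONT and 0 to 0 between the lesions, and both highest counts came from leaving out IONC 12 h replicate 2 (10 and 12). The SE of the Cp change at 12 h after IONT was 0.34 with that array and 0.22 without it. Without it and against all 5 naive arrays as 1 group the counts were 10 and 12. Against all 5 naive arrays, with every array kept, IONT had 6. With an adjusted p under 0.05 and no threshold on B, IONT had 7. Array weights gave 14 after IONC, 10 after IONT and 6 between the lesions, and turned the Txnrd1 difference at 12 h, IONC minus IONT, to 0.43 (adjusted p = 0.000128), from -0.18 with equal weights. Cyclic loess gave 8 after IONC, 10 after IONT and 1 between the lesions. The cause of these shifts was not tested. Counts over all probe sets are not given here for cyclic loess or for the adjusted p under 0.05. With the replicate number as a block the counts were 5 after IONC, 3 after IONT and 0 between the lesions, in the comparisons of array set 1, since those of set 2 could not be fitted. Arrays with the same number had a median correlation of 0.05, against -0.02 for different numbers, and 9 of 35 arrays correlated best with their own number. The correlations are of deviations from means of 2 or 3 arrays, so they cannot show whether arrays of the same number shared handling. Each of the 128 gene and comparison pairs was counted once in every alternative that held it. In this count 4 values lost their call, all of Cp at 3 d after IONC, and 67 gained one. A further 1 was called in the other direction and 6256 stayed the same. The same pair can be counted in several alternatives, so these are not separate gene values. The filter on dim probe sets left Slc40a1 out. Signals near the lowest of the arrays, those of Slc40a1 and most of Hmox1, carry no order.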
